A study of Mus musculus with 16 samples.

Results

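The response of mouse embryonic stem cells to 12 days without leukaemia inhibitory factor (LIF) was measured in the 5 lines of the series whose MBD3 protein keeps its coiled coil. MBD3 is a subunit of NuRD, a complex that combines histone deacetylase and nucleosome remodelling activities, and the series asks which of its domains the cells need to commit to lineages. The 5 lines gave 10 of the 16 samples of the series, 1 RNA sample per line with LIF and 1 after 12 days without it. They were chosen by the line named in the sample labels, and no measured value entered that rule. The rule was set with earlier results of these data known. EBRTcH3 is the male parental line of strain 129SV with its own MBD3. The other 4 lines carry a knockout of Mbd3 and express 1 returned form each, which the labels name Mbd3a, Mbd3b, Mbd3c and Mbd3a(deltaMBD), the last lacking the methyl-CpG-binding domain. The other 3 lines of the series carry the same knockout with an empty vector, Mbd3a(deltaCC) or Mbd3a without either domain, and are used below only where the 2 classes of line are compared. All cells were grown in a conventional stem cell medium with or without LIF. The labels name no feeder layer and do not say whether a line is 1 clone or a pool.

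Each line was its own control. The response of a gene is its log2 signal without LIF minus its log2 signal with LIF in the same line. A value such as 1.31 ± 0.12 is the mean response over the 5 lines with its standard error (SE) from a limma fit, n = 5 lines. A gene is said to have risen or fallen only where its Benjamini-Hochberg adjusted p in that fit was under 0.05 over 22872 tested genes. Each line gave 1 sample per condition, so the errors rest on differences between lines of unlike genotype. They come from 1 fit of all 16 arrays, which shares 1 estimate of a gene's spread over the 8 lines. The fit also draws that estimate towards the spread of other genes. The errors are therefore not the spread of the 5 lines alone. The 5 values of a gene are given below in the order EBRTcH3, Mbd3a, Mbd3b, Mbd3c and Mbd3a(deltaMBD). The samples are bulk RNA, in which fewer cells of a type and less RNA per cell cannot be told apart.

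The 16 arrays had medians between 4.72 and 4.85 on the log2 scale, and no pair of them was identical. The sample titles are numbered in 2 runs with a gap between them, and Mbd3a(deltaMBD) is the only one of the 5 lines in the later run, so what is particular to this line and to its run cannot be told apart. The signal of Mbd3 itself, the gene knocked out in 7 of the 8 lines, was 7.00 with LIF and 7.45 without it in the line with the empty vector and between 8.45 and 9.59 on the other 14 arrays. With LIF, the mean level of 8 stem cell markers lay between 11.59 and 11.78 on every one of the 5 arrays, and all 8, among them Pou5f1, Sox2 and Nanog, were above the 40th percentile of each array. After 12 days their mean level was 10.81 to 11.36, and 6 of the 8 fell and 1 rose. Among the falls, Pou5f1 (-0.27) lost its call when any 1 of the 5 lines was left out and after centring. The mean level of 7 trophoblast markers went from between 6.304 and 6.819 to between 8.29 and 9.683, with Krt18, Krt8, Hand1, Krt7 and Cdx2 all higher and Tfap2c lower. The seventh, Elf5 (0.24), did not pass. Markers of some other cell types rose on the same arrays, among them Dab2 (2.70) of primitive endoderm, where 3 of 6 rose and 2 fell. Mixl1 (2.59) and Eomes (1.58) of mesoderm also rose, where 2 of 3 rose. Of 4 neural markers, Pax6 (-1.75), Sox1 (-0.81) and Tubb3 (-0.62) fell and Nes (1.9) rose. Neural genes as a longer list did not lean down, with 6 rose and 4 fell among 20 tested neuroectoderm genes (median 0.02). Among 3 germ cell markers, Sycp3 (-1.83) fell and the others did not pass. Among 4 markers of blood and endothelium, 2 rose and 1 fell. Of 8 fibroblast markers, 3 rose, Dcn (1.05), Col1a1 (0.77) and Col3a1 (0.30), the last of which lost its call without Mbd3c. Of these 8, 5 were above the 40th percentile on all 10 arrays, while Dcn, Lum and Postn were below it on all 5 arrays with LIF. Without LIF, Dcn was above it on 3 of the 5 arrays, Postn on 1 and Lum on none. Lum and Postn exceeded it in fewer than 3 of the 16 arrays and were not tested. The mean level of the 8 was 5.14 to 5.306 with LIF and 5.39 to 5.74 without it.

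LIF is a cytokine that binds the LIF receptor together with gp130, activates STAT3, and keeps mouse embryonic stem cells dividing in an undifferentiated state. When it is taken away, the cells leave the naive state, pass through an epiblast-like one and start to take on the character of embryonic and extraembryonic lineages. The exit also changes how cells take up nutrients, make membranes and hold on to each other and to the matrix, and genes of these processes are described below.

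The response was broad and, over probe sets with 1 gene symbol, leaned towards higher signals. Of 22872 genes, 8181 passed (35.8%), with 4870 that rose (21.3%) and 3311 that fell (14.5%). A change of 2-fold or more was found in 869 that rose (3.8%) and 310 that fell (1.36%). The excess of rises grew with the size of the change, with 147 rises against 31 falls at 4-fold and 43 rises against 5 falls at 8-fold. Of the 8181, 7235 moved the same way in all 5 lines. For 5642 genes (24.7%) the 5 arrays without LIF did not overlap the 5 with LIF, and 1118 of the 1179 genes at 2-fold were among them. The median response of all tested genes was 0.04. When each array was centred on its median, that median was 0.10 and 70.2% of the calls were rises, against 59.5% as deposited. Probe sets without a symbol, which were not tested, leaned the other way, with 101 at least 2-fold higher and 498 at least 2-fold lower without overlap of the groups, against 825 and 295 of those with 1 symbol.

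The lists described below were grouped into transport, metabolism, signalling, adhesion, stress and growth. Signalling and adhesion genes rose most often, with 230 that rose and 59 that fell among 431 signalling genes (median response 0.36) and 221 that rose and 26 that fell among 378 adhesion genes (median 0.39). Metabolism followed with 156 rises and 58 falls among 372 genes (median 0.18), and transport with 94 and 49 among 252 (median 0.13). Stress genes went the other way, with 25 rises and 65 falls among 136 (median -0.22). Growth genes rose and fell in near-equal numbers, with 50 rises and 49 falls among 196 (median -0.02). Of all tested genes 21.3% rose and 14.5% fell, so falls had a larger part among growth genes. The counts of each list below are to be read beside these shares.

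**Figure D1:**
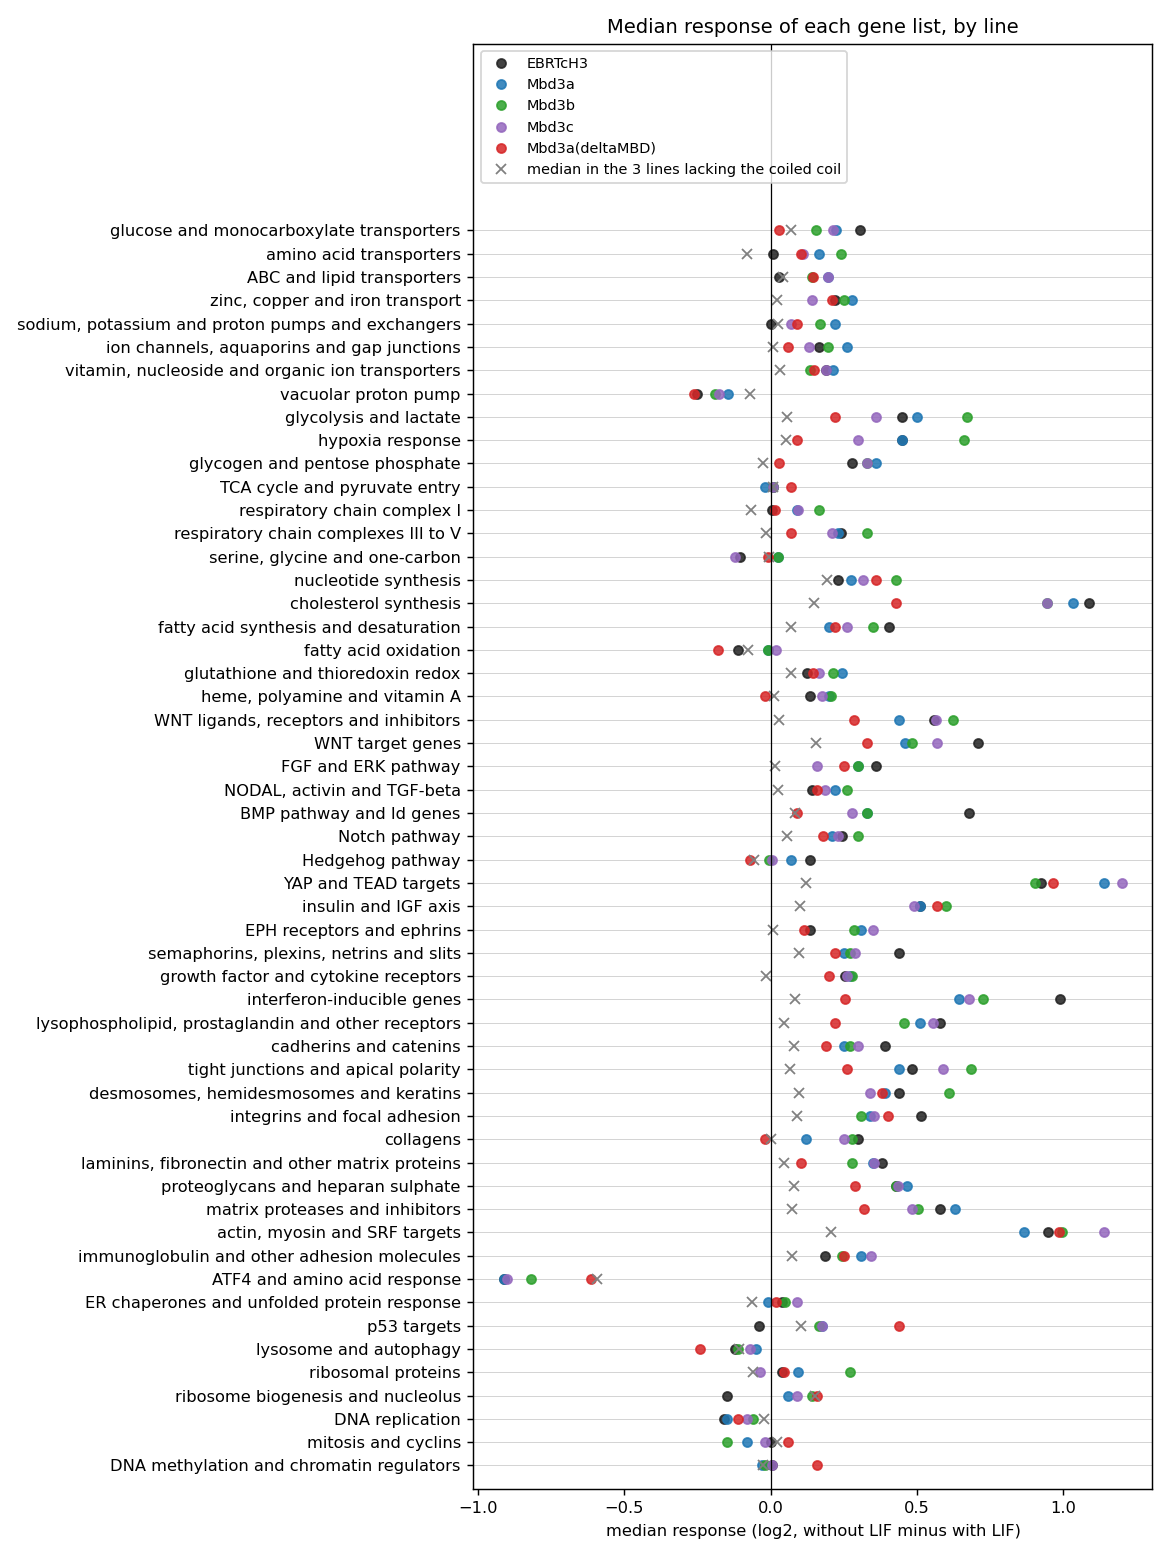
Median response of each gene list in each of the 5 lines (coloured points) and the median over the list of the mean response of the 3 lines that lack the coiled coil (grey crosses), on the log2 scale, without LIF minus with LIF. Of the lists shown, the medians of the mean response over the 5 lines are highest for the YAP, actin and cholesterol lists (1.03, 0.99 and 0.84), the amino acid response list lies lowest in every line, and the Mbd3a(deltaMBD) line (red) is at 0.43 for cholesterol synthesis, where the other 4 lie at 1.09, 1.03, 0.94 and 0.94.

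Genes of almost the whole route from acetyl-CoA to cholesterol rose without LIF. In the cholesterol synthesis list, 17 rose among 18 tested, with a median response of 0.84 against 0.04 for all genes. Dhcr7, which makes cholesterol in the last step, had log2 signals of 7.49, 7.72, 7.67, 7.70 and 7.78 with LIF and 9.82, 9.49, 9.46, 9.46 and 8.71 without it. Every array without LIF was above every array with LIF, and the Mbd3a(deltaMBD) line rose least. The change was 3.29-fold (rose by 1.72 ± 0.19, adjusted p = 3.93e-05). Hmgcs1, the enzyme that forms the precursor of mevalonate, went from 9.90, 9.66, 9.73, 9.70 and 9.44 to 11.36, 11.12, 11.04, 11.18 and 10.29, a 2.48-fold rise (adjusted p = 1.06e-05). Fdps and Sqle, which make farnesyl pyrophosphate and squalene epoxide, rose by 1.63 ± 0.15 and by 1.14 ± 0.11. Srebf2, the transcription factor that drives this pathway, rose by 0.85 ± 0.08, and its regulators Insig1 (0.74) and Scap (0.68) also rose. Among the tested members, Ebp (0.16), a sterol isomerase, did not pass, and the other 7 of the 25 listed genes were not tested because no probe set was matched to them here. Per line, the median of the list was 1.09, 1.03, 0.94, 0.94 and 0.43.

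Enzymes that build and desaturate fatty acids rose beside the sterol genes. In that list, 17 rose and 5 fell among 36 tested (median 0.24). Acaca and Fasn, which catalyse the committed step and the chain assembly, rose by 1.15 ± 0.12 and by 0.93 ± 0.10. Scd1, which puts the first double bond into saturated chains, had signals of 8.18, 8.44, 8.55, 8.16 and 8.39 with LIF and 10.11, 9.91, 9.70, 9.42 and 9.24 without it, and Fads2, a desaturase of polyunsaturated chains, rose by 1.48 ± 0.13. Both were higher on every array without LIF. Gpat3, which starts triglyceride synthesis, had the largest change of the list (3.93-fold, adjusted p = 2.39e-05). Elovl7, an elongase of very long chains, went against the list and fell by 1.29 ± 0.15. The 5 falls numbered 2 without the EBRTcH3 line, 3 without Mbd3a, 2 without Mbd3c and 2 after centring.

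Burning of fatty acids moved both ways, with 6 rose and 10 fell among 27 tested (median -0.01). Cpt1a, the gate through which long chains enter mitochondria, had signals of 9.96, 9.87, 9.88, 9.90 and 9.52 with LIF and 7.84, 8.45, 8.49, 8.20 and 8.39 without it. It was lower on every array without LIF, and fell by 1.55 ± 0.12 (adjusted p = 4.17e-06). The carnitine carrier Slc25a20 (-0.75), Cpt1b (-0.83) and the trifunctional enzyme subunit Hadha (-0.67) also fell. Among those that rose were Pparg (1.22), a nuclear receptor that binds fatty acids, and Acat1 (1.21), which splits acetoacetyl-CoA.

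The glucose carrier Slc2a1, the lactate exporter Slc16a3 and most genes of glycolysis rose. In the list of glucose and monocarboxylate carriers, 11 rose and 1 fell among 24 tested (median 0.18), and the fall, Slc45a4 (-0.26), was lost without EBRTcH3, Mbd3a or Mbd3c and after centring. Slc2a1, a glucose carrier of the plasma membrane, had signals of 10.97, 10.64, 10.69, 10.73 and 11.35 with LIF and 12.88, 12.86, 12.53, 12.57 and 12.09 without it. The groups did not overlap, and the change was 3.27-fold (adjusted p = 3.38e-05). Slc16a3, a lactate exporter, went from 7.09, 6.88, 6.80, 7.32 and 7.98 to 10.32, 9.95, 9.94, 9.65 and 9.31. Its rise was 6.15-fold, smallest in the Mbd3a(deltaMBD) line, which was also highest with LIF. Slc2a3, a second glucose carrier, did not pass (0.20), though it did after centring. In the glycolysis list, 12 rose and 1 fell among 19 tested (median 0.40). The muscle and liver forms of phosphofructokinase, Pfkm and Pfkl, rose by 1.79 ± 0.10 and by 0.95 ± 0.13, while the platelet form, Pfkp, fell by 0.62 ± 0.12. For both Pfkm and Pfkp the groups were separate. Pfkfb3, which makes the activator of phosphofructokinase, rose by 1.68 ± 0.11, and Ldha, which turns pyruvate into lactate, rose by 0.98 ± 0.12. Hk2, a hexokinase, did not pass (-0.20), though it fell with array weights. In the hypoxia list, which shares several of these genes, 14 rose and 5 fell among 23 tested (median 0.49). Bnip3, a mitophagy receptor, rose by 1.86 ± 0.21, and the histone demethylase Kdm3a and the growth factor Vegfa fell, by 0.96 ± 0.11 and by 0.58 ± 0.13, with overlap of the groups for Vegfa.

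Mitochondrial genes did not move as a block. In the tricarboxylic acid cycle list, 8 rose and 8 fell among 31 tested (median 0.03), with Got2 (0.91), Mdh1 (0.65) and Mdh2 (0.59) of the malate-aspartate shuttle among the rises. The pyruvate carrier subunit Mpc1 (-0.77), pyruvate carboxylase Pcx (-0.70) and the dehydrogenase subunit Pdhb (-0.61) were among the falls. For complex I, 7 rose and 2 fell among 34 tested, most of whose members did not pass. For complexes III to V, 15 rose and 5 fell among 39 tested, led by Cox6b2 (1.24), Cox7c (1.06) and Atp5g2 (0.90), with Uqcrq (-0.59) the largest fall. These 5 falls numbered 3 without EBRTcH3, 2 without Mbd3a, 3 without Mbd3b, 1 without Mbd3c and 1 after centring. Nucleotide synthesis leaned upward, with 18 rose and 2 fell among 28 tested (median 0.32), and 1 fell without Mbd3c and when only the 10 arrays of the 5 lines were fitted. Its largest rises were Prps2 (1.12), which makes the ribose donor of nucleotides, the adenine salvage enzyme Aprt (1.10) and thymidine kinase Tk1 (1.10). Among enzymes of retinoid handling, Rdh10 (1.76), which makes retinal, Dhrs3 (1.24), which reduces it, and Cyp26a1 (1.03), which degrades retinoic acid, rose, while Aldh1a2 (-0.38), which makes retinoic acid, fell.

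In the redox list, 19 rose and 8 fell among 46 tested. The falls numbered 5 without the Mbd3c line. Nox4, an oxidase that makes hydrogen peroxide, had signals of 3.95, 3.93, 4.07, 4.22 and 3.82 with LIF and 7.03, 7.20, 7.23, 7.46 and 6.70 without it. All 5 arrays without LIF lay above all 5 with LIF, and the 8.73-fold rise (adjusted p = 2.19e-09) was among the most even over the lines, from 2.88 to 3.27. The Nox4 signals with LIF were all below the 40th percentile of the arrays (4.24 to 4.38), so its fold is measured from a low signal. Txnip, which inhibits thioredoxin and glucose uptake, went from 12.44, 12.47, 12.44, 12.29 and 12.39 to 10.82, 10.86, 10.93, 10.27 and 10.79, a 3.19-fold fall. Mitochondrial superoxide dismutase, Sod2, fell by 1.03 ± 0.09, and the glutathione transferases Gstm5 (1.77) and Gstp1 (1.18) rose.

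The genes of the amino acid response had the lowest median of any list outside the pluripotency genes. ATF4 is a transcription factor whose protein is made when cells lack amino acids or carry unfolded protein, and it switches on genes for amino acid synthesis, amino acid uptake and tRNA charging. Many of its targets carry a composite element for ATF4 and its partner CHOP (encoded by Ddit3) near the start site. The excerpts that follow come from RefSeq promoters of build GRCm38.p6 and show the element in the 6 members that fell most among those whose matches all lie before the start site. Bases in capitals match TGATGNAA on either strand, and each excerpt is written 5′ to 3′ along its gene.
Inhbe (chr10:127351997-127352054, minus strand): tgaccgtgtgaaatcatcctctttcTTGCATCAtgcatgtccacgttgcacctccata
Nupr1 (chr7:126625548-126625605, minus strand): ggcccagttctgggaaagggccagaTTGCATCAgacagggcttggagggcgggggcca
Chac1 (chr2:119351024-119351081, plus strand): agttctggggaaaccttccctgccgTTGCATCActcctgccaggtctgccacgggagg
Herpud1 (chr8:94386292-94386349, plus strand): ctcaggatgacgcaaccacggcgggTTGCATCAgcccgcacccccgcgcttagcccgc
Vldlr (chr19:27216795-27216852, plus strand): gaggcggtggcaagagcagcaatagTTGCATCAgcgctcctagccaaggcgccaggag
Slc7a11 (chr3:50443628-50443704, minus strand): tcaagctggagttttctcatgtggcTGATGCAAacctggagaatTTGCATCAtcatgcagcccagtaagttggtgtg

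The element was found in 14 of 40 windows of 300 bases of this list (35%), against 458 of 17716 windows of all tested genes (2.59%). Among windows of genes that fell 2-fold the share was 5.9%, among those that rose 2-fold it was 1.97%, and among all genes that fell at any size it was 3.09%. The list was written from what is known of ATF4 targets, so its share is not independent of the element. Of the 14 members with a match, 12 fell, with a median response of -1.26. Of the 21 members with a window and no match, 16 fell, with a median of -0.81. A match is a stretch of letters and does not show binding.

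In this list, 36 of 44 tested members fell and the other 8 did not pass, with a median response of -0.77 and per-line medians of -0.91, -0.91, -0.82, -0.90 and -0.62. Inhbe, which encodes an inhibin beta subunit, had signals of 7.62, 7.61, 7.52, 7.60 and 7.91 with LIF and 4.68, 4.02, 4.38, 3.93 and 5.37 without it. All 5 arrays without LIF lay far below all 5 with LIF, and the fall was 9.04-fold (adjusted p = 1.38e-06). The lowest signals without LIF, 3.93 and 4.02, were below the 40th percentile of the arrays (4.24 to 4.38). Nupr1, a small stress-induced nuclear protein, went from 10.78, 10.89, 10.88, 11.01 and 11.25 to 8.38, 7.74, 8.01, 7.14 and 8.46, an 8.09-fold fall (adjusted p = 6.83e-07). The mitochondrial folate enzyme Aldh1l2 fell 7.1-fold and the glutathione-degrading enzyme Chac1 4.55-fold, in each case without overlap of the groups.

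The transcription factors of the programme fell with their targets. Atf4 itself had signals of 10.87, 10.33, 10.27, 10.32 and 10.36 with LIF and 9.38, 9.31, 9.28, 9.02 and 9.86 without it, a 2.08-fold fall (adjusted p = 0.000134). The groups did not overlap, and the highest array without LIF was that of the Mbd3a(deltaMBD) line. Ddit3 fell by 1.25 ± 0.15, Atf5 (-1.45) and Cebpg (-1.23), both bZIP factors, also fell, and Trib3, a pseudokinase that feeds back on ATF4, fell by 1.16 ± 0.11. Enzymes followed, with asparagine synthetase Asns (-0.69), the serine pathway enzyme Psph (-0.87), mitochondrial Shmt2 (-0.99) and Mthfd2 (-1.10), and the cysteine-forming enzyme Cth (-1.33). For Asns and Mthfd2 the Mbd3a(deltaMBD) line moved least, and Psat1, another enzyme of the serine route, fell in the other 4 lines and stood at 11.56 with LIF and 11.59 without it in that line, so that its call was lost without EBRTcH3, Mbd3a, Mbd3b or Mbd3c and after centring. Of the tRNA synthetases, Cars, Nars, Sars, Gars, Wars and Mars1, in that order, had responses of -0.72, -0.72, -0.61, -0.58, -0.52 and -0.47, and all passed. Members that did not pass included Atf3 (-0.15), Ddit4 (-0.39), Phgdh (-0.14), Slc3a2 (-0.19) and Slc38a2 (-0.07), of which Slc3a2 passed with array weights.

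**Figure D2:**
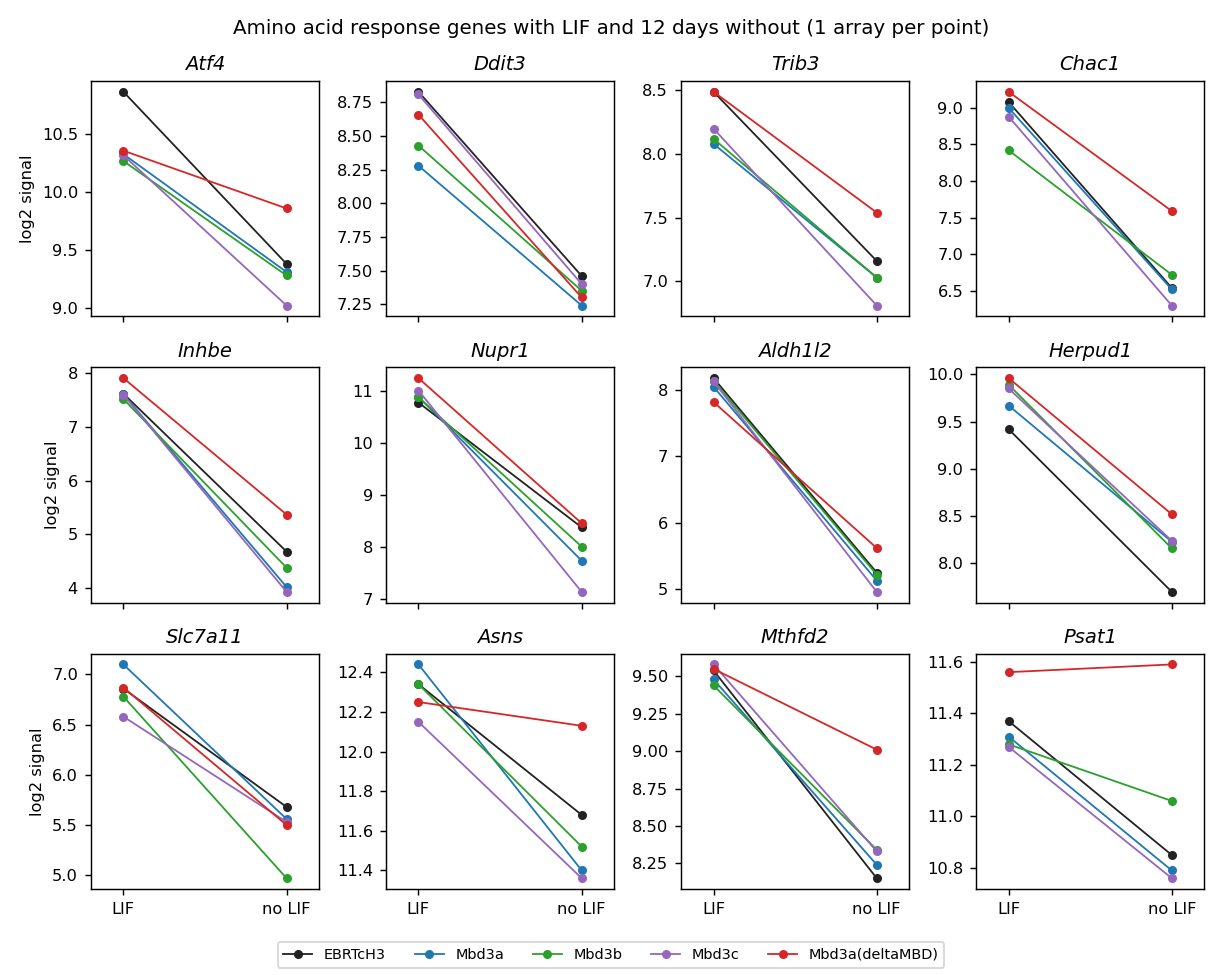
Log2 signal of 12 genes of the amino acid response with LIF (left of each panel) and after 12 days without it (right), 1 array per point, with a line joining the arrays of the same cell line and an own vertical range in each panel. In 11 of the panels every line falls, and in the Psat1 panel the Mbd3a(deltaMBD) line (red) does not.

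Amino acid carriers moved in both directions. Slc7a11, the cystine importer, had signals of 6.86, 7.10, 6.78, 6.58 and 6.87 with LIF and 5.68, 5.56, 4.97, 5.53 and 5.50 without it. The groups were separate and the fall was 2.62-fold (adjusted p = 3.73e-05). Slc6a9, a glycine carrier, fell by 1.29 ± 0.14, the arginine and lysine carrier Slc7a1 fell by 1.00 ± 0.13, and the glutamine and serine carrier Slc1a5 fell by 0.98 ± 0.12. In the other direction, Slc7a8, a light chain for neutral amino acids, went from 5.67, 5.99, 5.78, 5.44 and 5.72 to 6.90, 7.25, 7.04, 6.91 and 6.92, a 2.44-fold rise with responses from 1.20 to 1.47 over the lines. The light chains Slc7a7 (0.93) and Slc7a6 (0.65) and the carrier Slc43a2 (0.79) rose too. In all, 13 rose and 9 fell among 34 tested amino acid carriers, so the list as a whole had a median of only 0.12.

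Iron and zinc transport held some of the largest rises of the experiment. Slc40a1 is ferroportin, the exporter of iron. Its signals were 5.49, 5.17, 4.92, 5.19 and 5.23 with LIF and 9.53, 9.03, 8.64, 9.03 and 8.47 without it. The change was 13.4-fold (adjusted p = 5.08e-09), with no overlap. Slc39a8, an importer of zinc and manganese, went from 5.89, 5.11, 5.11, 5.04 and 5.10 to 8.69, 9.13, 8.73, 8.55 and 8.03, a 10.4-fold rise. Heph, the ferroxidase that works with ferroportin, rose by 0.92 ± 0.09, and the transferrin receptor Tfrc rose by 0.68 ± 0.11. Metallothionein Mt1 (0.88) rose as well. The zinc and iron importer Slc39a14 (-0.94), transferrin Trf (-0.54) and the zinc exporter Slc30a1 (-0.45) fell. In all, 17 rose and 3 fell among 33 tested (median 0.22), and the falls numbered 5 with array weights.

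Lipid, water and ion carriers changed in both directions. Abca1, which exports cholesterol from the cell, had signals of 9.01, 9.01, 9.37, 9.35 and 7.81 with LIF and 5.91, 6.31, 6.34, 6.26 and 6.23 without it. The fall was 6.5-fold (adjusted p = 2.83e-06), smallest in the Mbd3a(deltaMBD) line, whose level with LIF was the lowest. Apolipoprotein E, a carrier of lipids between cells, also fell (Apoe (-0.98)), as did the lipoprotein receptor Vldlr (-1.49), whose promoter is printed above. Fabp5, an intracellular fatty acid carrier, went from 6.74, 6.97, 6.99, 6.78 and 7.38 to 8.88, 8.73, 9.30, 9.14 and 8.77 (3.98-fold), and the endocytic receptors Lrp2 (1.46) and Lrp8 (1.31) rose. Aqp3, a channel for water and glycerol, went from 10.08, 9.04, 9.29, 9.57 and 9.28 to 7.26, 6.75, 6.87, 6.47 and 6.67, a 6.27-fold fall, while the potassium leak channel Kcnk1 rose 5.71-fold, both without overlap. The calcium-activated potassium channel Kcnma1 (-1.37) and the calcium channel Cacna1a (-1.08) fell. In the channel list, 14 rose and 8 fell among 42 tested, and the falls numbered 5 without Mbd3a, without Mbd3b, without Mbd3c and after centring.

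Further solute carriers rose strongly. Slc25a24, a mitochondrial carrier of ATP-magnesium and phosphate, had signals of 5.34, 5.32, 4.78, 5.34 and 4.66 with LIF and 9.06, 9.19, 8.90, 9.07 and 8.06 without it, a 13.6-fold rise (adjusted p = 2.19e-09). The groups lay far apart. The prostaglandin carrier Slco2a1 rose by 2.06 ± 0.14, the choline carrier Slc44a2 rose by 1.45 ± 0.09, and the thiamine carrier Slc19a3 rose by 1.18 ± 0.09. Slc23a2, a carrier of vitamin C, went against these and fell by 0.76 ± 0.10, while the related Slc23a1 (1.33) rose. Over all solute carrier genes, 100 rose (29.9%) and 41 fell (12.2%) among 335 tested, with a median of 0.08. Of all tested genes 21.3% rose and 14.5% fell. Genes named as transmembrane proteins (Tmem) had near the same shares as solute carriers, 30.6% and 11.9%.

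**Figure D3:**
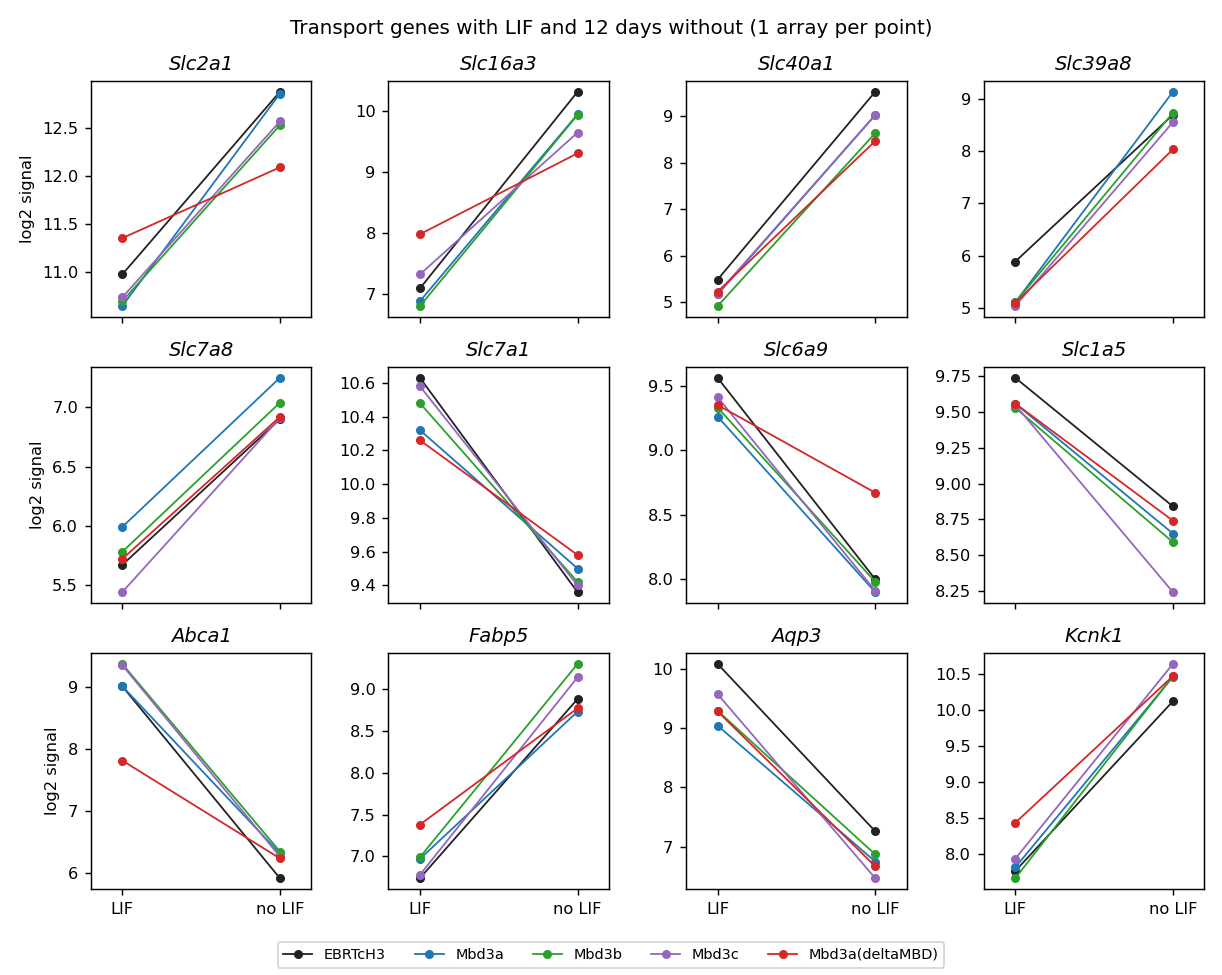
Log2 signal of 12 transport genes with LIF and after 12 days without it, 1 array per point, with a line joining the arrays of the same cell line and an own vertical range in each panel. The carriers Slc7a1, Slc6a9 and Slc1a5, the exporter Abca1 and the channel Aqp3 go down in every line, and the other 7 go up in every line.

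The acidic compartment held more falls than rises. The vacuolar proton pump acidifies lysosomes and endosomes. Of its 20 tested subunits and accessory proteins, 9 fell and 1 rose (median -0.20), and 9 fell under every alternative tried, while the rises numbered 1 to 3. The largest were Atp6v1h (-0.87), Atp6ap2 (-0.67) and Atp6v0b (-0.60), and the rise was Atp6v0e (0.56). The regulators of lysosomal genes Mitf and Tfeb fell by 1.27 ± 0.09 and by 0.91 ± 0.10, with Mitf going from 7.69, 7.60, 7.50, 7.05 and 7.74 to 6.37, 6.20, 6.16, 6.17 and 6.32. In the lysosome and autophagy list, 8 rose and 15 fell among 41 tested, with the hexosaminidase subunit Hexa (-0.98), the autophagy kinase Ulk1 (-1.03) and Manba (-0.86) down and Gusb (0.91) and Smpd1 (0.75) up. After centring, the medians of these lists were -0.14 and -0.05.

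The insulin-like growth factor axis held the largest rise of any gene with an established name. Igf2, a growth factor of embryo and placenta, had signals of 6.63, 6.29, 6.41, 6.79 and 6.16 with LIF and 12.43, 12.50, 11.94, 11.59 and 10.21 without it. The rise was 38.8-fold (adjusted p = 1.25e-07), with the Mbd3a(deltaMBD) line the lowest on the arrays without LIF. The binding proteins that hold such factors outside the cell rose with it, led by Igfbp3 (rose by 2.24 ± 0.17), Igfbp2 (rose by 2.06 ± 0.24) and Igfbp4 (1.71). Inside the cell the adaptor Irs1 (1.80) and the kinase Akt1 (1.53) rose and the transcription factor Foxo3 (-0.94) fell. In all, 18 rose and 3 fell among 28 tested (median 0.52), and this list had much the same median in the 5 lines, between 0.49 and 0.60.

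WNT ligands, receptors and inhibitors, counted as 1 list, and WNT targets rose more often than they fell. Rspo3, a secreted amplifier of WNT signals, had signals of 4.10, 3.90, 3.62, 3.72 and 3.26 with LIF and 6.93, 5.98, 5.22, 5.75 and 4.91 without it (4.11-fold, adjusted p = 3.7e-06). The groups did not overlap, and EBRTcH3 was highest without LIF. The Rspo3 signals with LIF were all below the 40th percentile of the arrays (4.24 to 4.38), so its fold is measured from a low signal. The ligands Wnt4 (1.79) and Wnt3 (1.62) and Wls, the carrier that WNT proteins need to leave the cell (rose by 1.56 ± 0.14), rose. The receptors Ror2 (1.18) and Fzd6 (1.01) rose as well. The receptor Fzd5 (-1.21) and the inhibitor Sfrp1 (-1.12) fell. Among ligands, receptors and inhibitors, 29 rose and 2 fell among 48 tested (median 0.50). Axin2, a direct target of beta-catenin, went from 7.49, 7.70, 7.23, 7.24 and 7.31 to 9.46, 8.89, 8.74, 8.95 and 7.91, highest in EBRTcH3 and lowest in Mbd3a(deltaMBD), and among 18 tested targets 12 rose (median 0.46), with Lef1 (2.63) and Sp5 (1.89) ahead of Axin2 (rose by 1.40 ± 0.16).

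The FGF and ERK genes exchanged members rather than moving together, with 21 rose and 13 fell among 45 tested. Mras, a RAS-like GTPase, had signals of 9.82, 9.87, 9.83, 9.93 and 9.91 with LIF and 6.88, 7.42, 7.08, 7.38 and 6.87 without it, a 6.71-fold fall, and the related Rras went from 8.20, 8.07, 7.50, 7.50 and 8.09 to 10.86, 10.69, 10.33, 10.22 and 9.68, a 5.59-fold rise. Neither overlapped between the groups. The ligands Fgf5 (2.94) and Fgf15 (2.37) rose, and the feedback inhibitor Spry4 (-1.39) and the ligand Fgf1 (-1.27) fell. The AP-1 subunits Jun (1.34) and Fosl2 (1.22) rose.

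In the TGF-beta, activin and NODAL list, 14 rose and 11 fell among 34 tested. Tgfb2, a ligand, had signals of 5.14, 5.13, 5.28, 4.95 and 4.84 with LIF and 8.60, 7.77, 7.37, 8.10 and 6.71 without it (6.24-fold). The activin trap Fst (1.49), the co-receptor Tgfbr3 (1.34) and the signal transducer Smad3 (1.24) rose, the type I receptor Tgfbr1 (-0.62) fell, and the inhibin subunit Inhbe fell as described above. Among BMP genes, 16 rose and 2 fell among 32 tested, with the protease Bmp1 (2.46), the ligand Bmp8b (2.10) and the targets Msx2 (1.81) and Id2 (1.15) ahead. The 2 falls were Id4 and Bmp4, of which 1 passed after centring or when any 1 line other than EBRTcH3 was left out, and neither with no replicate block. Hedgehog genes changed in opposite directions. The inhibitor Hhip, itself a target of the pathway, had signals of 8.99, 9.60, 10.06, 9.60 and 9.70 with LIF and 4.74, 5.38, 5.59, 5.68 and 7.39 without it, a 14.3-fold fall and the largest of any gene with an established name. The target and effector Gli1 (-1.69) fell with it, and both were highest without LIF in the Mbd3a(deltaMBD) line. The repressor-forming Gli3 (1.30), the transducer Smo (1.04) and the co-receptor Cdon (1.26) rose. In the Notch list the receptor Notch3 (1.53) rose and the target Hes1 (-1.17) fell.

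Targets of YAP and TEAD, the factors that respond to cell shape and contact, formed the list with the highest median outside the lists of cell identity. Of 26 tested, 20 rose and 1 fell, Birc2 (-0.30), a fall that was lost when any 1 line other than Mbd3a(deltaMBD) and the empty vector was left out and after centring, with a median response of 1.03. Thbs1, a secreted matrix protein, had signals of 6.29, 5.71, 5.52, 5.89 and 5.94 with LIF and 10.21, 10.32, 10.25, 11.19 and 10.23 without it. The rise was 23.8-fold (adjusted p = 2.5e-08), and by line it was 3.92, 4.61, 4.73, 5.30 and 4.29. The cofactor Vgll3 (3.79), the YAP-binding scaffold Amot (3.02) and the matricellular protein Ccn1 (2.46) rose with it. Windows with CATTCC, the TEAD motif, made up 56% of this list and 13.2% of all tested genes, in a list written from knowledge of such targets. The share was 15.1% among genes that rose 2-fold, 13.4% among those that fell 2-fold and 13.3% among all that rose, near that of all genes.

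Receptors, ligands and interferon-inducible genes rose more often than they fell. Csf1, the macrophage growth factor, had signals of 5.39, 5.11, 4.69, 4.96 and 5.31 with LIF and 9.27, 9.33, 9.14, 9.48 and 7.88 without it, a 15.2-fold rise with the lowest value in the Mbd3a(deltaMBD) line. The VEGF receptor Flt1 (2.19), the collagen receptor Ddr1 (1.66) and the receptors Erbb3 (1.39) and Egfr (1.29) rose. The receptor for the withdrawn cytokine itself, Lifr, went from 9.96, 9.99, 10.17, 10.10 and 9.55 to 8.43, 8.05, 8.31, 8.18 and 8.92 and fell by 1.58 ± 0.19 (adjusted p = 6.93e-05). Pros1, a ligand of TAM receptors, fell 4.01-fold. In all, 25 rose and 8 fell among 48 tested. Among interferon-inducible genes, 21 rose and 2 fell among 32 tested (median 0.63, and 0.26 in the Mbd3a(deltaMBD) line). Gbp2, a guanylate-binding GTPase, had signals of 4.37, 4.28, 4.17, 4.22 and 4.18 with LIF and 9.88, 9.16, 9.10, 9.67 and 7.75 without it (29.2-fold). Its signals with LIF lay close to the 40th percentile of the arrays (4.24 to 4.38), so this fold is measured from a low signal. Genes of antigen processing, Tap1 (1.33) and Psmb8 (1.58), and the surface protein Bst2 (1.46) rose, and Xaf1 (-1.21) and Irf9 (-0.43) fell. Where genes had to exceed the 60th percentile, fewer members were tested and 14 rose.

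Guidance molecules moved both ways. Sema6a, a transmembrane semaphorin, had signals of 5.70, 5.07, 5.63, 6.16 and 4.81 with LIF and 8.56, 8.82, 8.79, 9.20 and 8.90 without it (10.4-fold), and the secreted Sema3e (2.83) and Sema3c (2.22) and the netrin receptor Unc5b (1.98) rose. Netrin itself, Ntn1 (-1.18), and another of its receptors, Neo1 (-1.46), fell. The ephrins Efna5 (1.93), Efnb2 (1.73) and Efnb1 (1.67) rose, while the receptor Epha4 went from 9.99, 9.98, 10.17, 9.86 and 9.20 to 7.86, 7.67, 7.79, 7.87 and 7.84 and fell by 2.03 ± 0.17. Of 30 receptors and enzymes of lysophospholipid, prostaglandin and related signals, 18 rose, led by the adhesion receptor Adgrl2 (3.23) and the chemokine Cxcl16 (2.19).

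The contractile cytoskeleton had the next highest median. Actin, myosin and their partners are switched on by SRF, which binds the CArG box, with the letters CC, 6 bases of A or T, and GG. The excerpts show that box, in capitals, in the 6 members that rose most among those whose matches all lie before the start site, from the same RefSeq promoters of build GRCm38.p6, each 5′ to 3′ along its gene.
Cnn2 (chr10:79988519-79988578, plus strand): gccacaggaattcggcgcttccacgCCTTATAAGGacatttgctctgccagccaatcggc
Acta1 (chr8:123894814-123894873, minus strand): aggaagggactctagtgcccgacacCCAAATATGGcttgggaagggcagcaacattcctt
Myl9 (chr2:156775278-156775337, plus strand): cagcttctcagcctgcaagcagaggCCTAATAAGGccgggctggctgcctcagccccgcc
Fhl1 (chrX:56779556-56779615, plus strand): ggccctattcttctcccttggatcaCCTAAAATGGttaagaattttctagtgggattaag
Fhl2 (chr1:43163962-43164017, minus strand): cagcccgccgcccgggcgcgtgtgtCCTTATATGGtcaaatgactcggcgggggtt
Vcl (chr14:20929148-20929205, plus strand): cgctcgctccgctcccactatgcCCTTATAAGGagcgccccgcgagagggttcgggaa

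The box was found in 9 of 40 windows of this list (22.5%) and in 1.45% of the windows of all tested genes. Among genes that rose 2-fold the share was 2.9%, among genes that fell 2-fold 1.64%, and among all that rose at any size 1.39%. As for the amino acid response, the list was written from known targets. Of the tested members with a window, 8 held a match and all of them rose (median 1.22), and 21 of the 24 without one rose (median 0.99).

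In the list, 33 of 38 tested members rose, with a median response of 0.99 and per-line medians of 0.95, 0.86, 1.00, 1.14 and 0.98, so the Mbd3a(deltaMBD) line lay within the range of the others. Tagln, the actin-bundling protein transgelin, had signals of 5.26, 5.17, 5.03, 5.25 and 5.53 with LIF and 10.68, 10.12, 10.09, 10.75 and 10.35 without it, a 35.5-fold rise (adjusted p = 2.19e-09). Tpm1, a tropomyosin, went from 8.38, 8.10, 8.31, 8.36 and 8.22 to 11.61, 11.39, 11.30, 11.62 and 11.24. Its 8.93-fold rise was one of the most even of all genes, from 2.99 to 3.29. Smooth muscle actin Acta2 (4.49) and the calponins Cnn2 (rose by 2.64 ± 0.11) and Cnn1 (2.36) rose. None of these overlapped between the groups.

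Cell-matrix adhesion genes rose with the cytoskeleton. In the integrin and focal adhesion list, 22 rose and 4 fell among 38 tested (median 0.36). Itga3, the alpha subunit of a laminin receptor, had signals of 8.07, 7.77, 7.67, 7.75 and 7.58 with LIF and 9.95, 10.26, 9.94, 10.20 and 9.84 without it (4.82-fold). The actin cross-linker Flnc (2.34), the kinase-like scaffold Ilk (1.43) and Zyx (1.26) rose. The parvins, which tie ILK to actin, moved in opposite directions. Parva went from 7.20, 7.21, 6.96, 6.92 and 6.60 to 9.61, 9.19, 8.88, 9.20 and 8.48 and Parvb from 10.46, 10.10, 10.20, 10.30 and 9.95 to 8.25, 7.89, 7.89, 7.63 and 8.08, a 4.27-fold rise and a 4.77-fold fall with no overlap in either. The tensin Tns3 (-1.24) and the integrin subunit Itga9 (-1.01) fell too.

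Matrix genes rose more often than they fell. Fibroblast markers rose on the same arrays in 3 of 8 cases, with Lum and Postn not tested. Of these rises, Col1a1 and Col3a1 are collagens, and the part of fibroblast markers in this was not tested. Of 39 collagen genes and collagen enzymes, 17 rose, led by the basement membrane chains Col4a2 (1.79) and Col4a1 (1.48). Of the laminin chains, Lamb1 (1.46) rose, and Lama1 went from 7.87, 7.59, 7.67, 8.01 and 7.41 to 6.32, 6.35, 6.30, 6.31 and 6.41 and fell by 1.37 ± 0.12, with Lamc1 (-0.62) also lower. The proteoglycan Bgn (biglycan) had signals of 4.88, 4.76, 4.76, 4.74 and 4.80 with LIF and 8.90, 8.32, 7.84, 8.11 and 7.81 without it, a 10.6-fold rise. The glypican Gpc4 (2.08), the hyaluronan receptor Cd44 (1.95) and the hyaluronan synthase Has2 (1.76) rose, and the heparan sulphate editor Sulf2 (-0.74) fell, with 23 rose and 2 fell among 36 tested in that list. Among proteases and their inhibitors, 25 rose and 3 fell among 38 tested, with Timp2 (2.15), Timp3 (1.75), Mmp25 (2.15) and the procollagen protease Bmp1 ahead. Of those 3 falls, 1 passed without EBRTcH3 and 1 after centring.

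Genes of epithelial cell contacts rose. Cldn6, a claudin of tight junctions, had signals of 8.40, 7.81, 7.56, 8.08 and 8.20 with LIF and 10.88, 10.87, 10.66, 10.82 and 10.30 without it (6.48-fold, adjusted p = 2.5e-07). The groups did not overlap. The apical transport GTPase Rab25 (1.99), Cldn7 (1.71) and the junction protein Cgn (1.52) rose, and the junctional adhesion molecule Jam2 fell by 1.77 ± 0.15. In the tight junction list, 30 rose and 3 fell among 52 tested (median 0.47). Of the 3 falls, 1 passed without EBRTcH3, 1 without Mbd3b, 1 without Mbd3c, 1 with no filter and 1 after centring. Desmosomal Dsp went from 7.57, 7.37, 7.23, 7.30 and 6.93 to 10.52, 10.52, 10.31, 10.77 and 9.48 (8.22-fold), with Dsc2 (rose by 3.02 ± 0.16) and the simple epithelial keratins Krt18 (rose by 4.76 ± 0.19), Krt8 and Krt19 beside it. Zeb1, a repressor of epithelial genes, had signals of 8.44, 8.42, 8.67, 8.33 and 7.85 with LIF and 6.61, 5.23, 5.70, 5.61 and 6.36 without it, a 5.43-fold fall. Both E-cadherin and N-cadherin were higher, Cdh1 (0.79) and Cdh2 (1.41), and the protocadherins Pcdh1 (2.17) and Pcdh18 (2.06) led the cadherin list. Of the immunoglobulin-type molecules, Pecam1, present on stem cells, went from 10.44, 10.38, 10.38, 10.29 and 10.36 to 8.60, 8.75, 9.03, 8.51 and 9.77, and Ncam1 fell by 1.46 ± 0.12, while Lrrn1 (1.79), Igsf9 (1.76) and Flrt3 (1.73) rose. Markers of trophoblast (5 of 7), primitive endoderm (3 of 6), mesoderm (2 of 3) and fibroblasts (3 of 8, with Lum and Postn not tested) rose on the same arrays. Their levels are given above, and their part in these lists was not tested.

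Growth genes were divided. The cell cycle inhibitor Cdkn1c had signals of 8.04, 7.00, 7.41, 8.07 and 7.04 with LIF and 9.87, 10.02, 9.54, 9.25 and 8.77 without it, a 3.94-fold rise, and its relative Cdkn1b went from 8.09, 8.69, 8.70, 8.65 and 8.53 to 7.14, 7.33, 7.38, 7.15 and 7.69, a 2.29-fold fall. Cyclin Ccnd2 (1.04) rose, and the kinetochore protein Ndc80 (-1.08) fell. Mitosis and cyclin genes counted 12 rose and 16 fell among 45 tested, and the falls numbered 10 without Mbd3a, 10 without Mbd3b and 9 after centring. Of DNA replication genes, 9 rose and 13 fell among 41 tested, with the polymerase subunit Pola1 (-1.32) the largest fall. Among chromatin genes the DNA methyltransferases Dnmt3b (rose by 2.03 ± 0.10) and Dnmt3a (rose by 0.92 ± 0.11) rose, and the dioxygenases that oxidise methylcytosine, Tet2 and Tet1, fell by 2.05 ± 0.15 and by 1.18 ± 0.17. In the endoplasmic reticulum list the retrieval receptor Kdelr3 fell by 1.68 ± 0.11 while its relative Kdelr1 (0.54) rose, and the disulphide isomerase P4hb (0.74) rose. Genes named as zinc finger proteins, most of them DNA-binding factors, fell far more often than they rose, with 38 rises and 157 falls among 356 (median -0.21, and -0.15 after centring). These were 10.7% and 44.1%, against 21.3% and 14.5% of all tested genes.

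The Mbd3a(deltaMBD) line followed the other lines least closely. The slope of a line's response on the mean of the other 4, over 22872 genes, was 0.66 in Mbd3a(deltaMBD), against 0.96, 0.98, 1.00 and 1.05 for the parental line and the Mbd3a, Mbd3b and Mbd3c lines. In the usual order of lines the correlations across genes were 0.83, 0.87, 0.87, 0.89 and 0.69, and genes are not independent replicates. The SD of the response over genes was 0.50 in Mbd3a(deltaMBD) and 0.55 to 0.57 in the other 4, so its lower slope goes with a lower correlation as well as with a smaller spread. Genes 2-fold higher without LIF in a single pair of arrays numbered 1069 (4.67%), 1073 (4.69%), 1131 (4.94%), 1176 (5.14%) and 790 (3.45%), and genes 2-fold lower 581 (2.54%), 458 (2%), 508 (2.22%), 514 (2.25%) and 350 (1.53%). Of the 1179 genes at 2-fold, the Mbd3a(deltaMBD) line had the smallest change in 685 (58.1%) and EBRTcH3 in 243 (20.6%). There is 1 pair of arrays per line, so no test of a line was made.

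**Figure D4:**
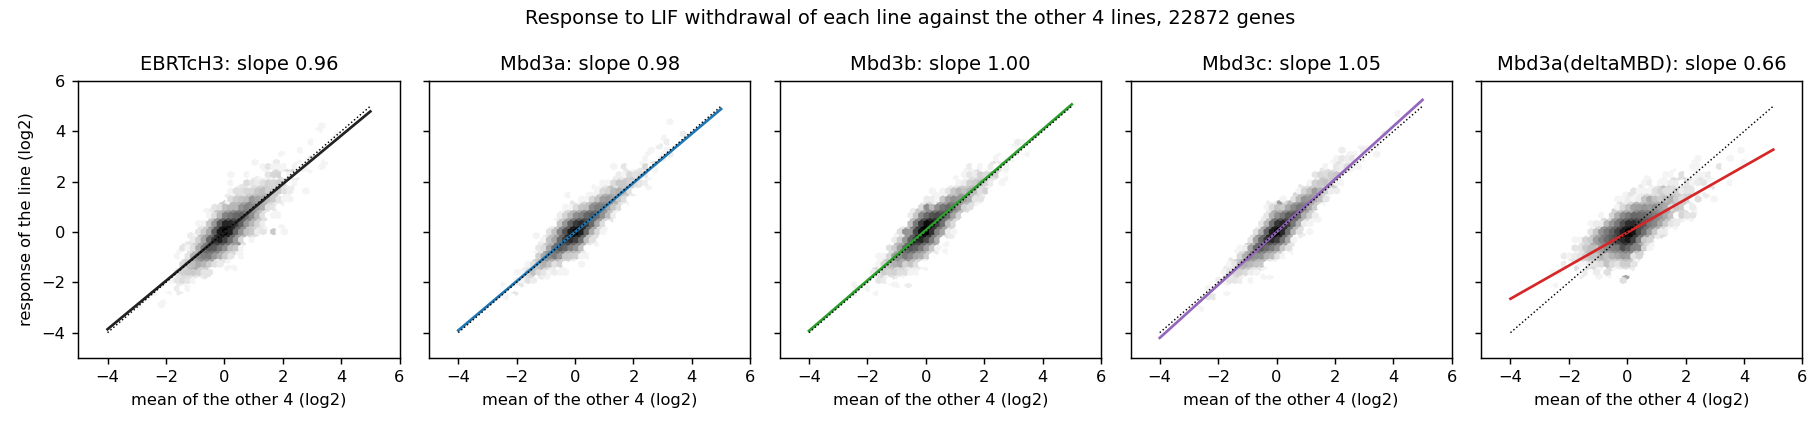
Response of each line (vertical axis, log2) against the mean response of the other 4 lines (horizontal axis, log2) for 22872 genes, shaded by the number of genes, with the fitted slope in colour and the line of equal response dotted. The slopes are 0.96 to 1.05 in the first 4 lines and 0.66 in the Mbd3a(deltaMBD) line.

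Single genes ranged from very even to very uneven over the lines. The most even large changes were those of Sertad4 (1.42 to 1.58), the kinase gene Cdkl1 (1.19 to 1.32) and Tpm1 and Nox4, described above. The largest spread was that of Hand1, a trophoblast and heart transcription factor, with 5.70, 5.52, 5.39, 5.39 and 5.46 with LIF and 9.92, 9.92, 9.19, 8.86 and 6.84 without it. The Mbd3a(deltaMBD) line rose least, and by line the responses were 4.22, 4.40, 3.80, 3.47 and 1.38, the widest gap between that line and the rest among genes that passed. By line the responses of Hhip were -4.25, -4.22, -4.47, -3.92 and -2.31, those of the receptor tyrosine kinase Tek -2.56, -1.85, -1.35, -1.10 and 0.42, and those of the lipase Lipg 2.44, 2.19, 2.31, 2.24 and 0.66, with Mbd3a(deltaMBD) again apart from the rest. Cd80, an immune co-stimulator, went from 8.79, 7.83, 7.80, 7.47 and 6.51 to 5.98, 5.46, 5.99, 6.74 and 6.58, so it fell in 4 lines, did not fall in Mbd3a(deltaMBD), and its groups overlap. The RNA export factor gene Nxf7 went from 4.43, 4.03, 3.82, 3.89 and 3.98 to 8.30, 8.20, 7.22, 6.38 and 5.42. With LIF, all lines but EBRTcH3 were below the 40th percentile of the arrays (4.24 to 4.38). Wnt5a, a WNT ligand, rose most in EBRTcH3, with responses by line of 2.82, 0.98, 1.92, 1.13 and 0.30.

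The 3 lines without a coiled coil were set beside the 5 that keep it. The difference of the response, lacking minus keeping lines, was a contrast in the same fit. In the lacking lines alone, LIF withdrawal passed for 670 genes (2.93%). The difference passed for 2759 of 22872 genes (12.1%), with 7.9% lower and 4.17% higher in the lacking lines. It passed for 936 of the 1179 genes that changed 2-fold (79.4%), which were chosen by the response of the keeping lines. The slopes of the lacking lines on the mean of the 5 were 0.35 for the empty vector, 0.17 for Mbd3a(deltaCC) and 0.17 for the line without both domains. The count of 2759 was 1353 without the Mbd3a(deltaCC) line, 1369 without the line lacking both domains, and 732 in the first run of titles, where the empty vector is the only lacking line. Of the 3 lacking lines 2 are in the later run of titles, against 1 of the 5 keeping lines, so class and run are partly confounded and their shares in this difference cannot be told apart.

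The lists differed in how much of their response was seen in the lacking lines. Of the 18 cholesterol genes, 12 differed, and the median fell from 0.84 in the keeping lines to 0.15 in the lacking ones. For Fdps the difference was -1.44 ± 0.25 (adjusted p = 0.00401). The actin list had 20 of 38 that differed, with a median of 0.20 in the lacking lines, and Tagln, at 1.09 there, differed by -4.06 ± 0.21 (adjusted p = 5.26e-06). The YAP list had 16 of 26 that differed, with a median of 0.12 in the lacking lines. In the amino acid list 8 of 44 differed, where 12.1% of all tested genes did, and the medians were -0.77 and -0.59. Atf4 was -0.48 in the lacking lines, a difference of 0.58 ± 0.23 with a 95% interval of 0.08 to 1.08 that did not pass (adjusted p = 0.124). Without the Mbd3a(deltaMBD) line this difference was 0.72 and passed (adjusted p = 0.0264), and it passed with array weights. Ddit3 (-1.03), Trib3 (-0.81) and Slc1a5 (-0.80) passed as falls there, without a passed difference, with intervals of -0.33 to 0.78, -0.03 to 0.74 and -0.27 to 0.62, and the difference of Trib3 passed with array weights. Within the same list Inhbe, Nupr1, Aldh1l2 and Cth did differ, by 1.97 ± 0.35, 1.98 ± 0.30, 1.83 ± 0.32 and 1.40 ± 0.21. Those of Inhbe, Nupr1 and Cth did not pass in the first run of titles alone. Cth had a response of 0.07 in the lacking lines.

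**Figure D5:**
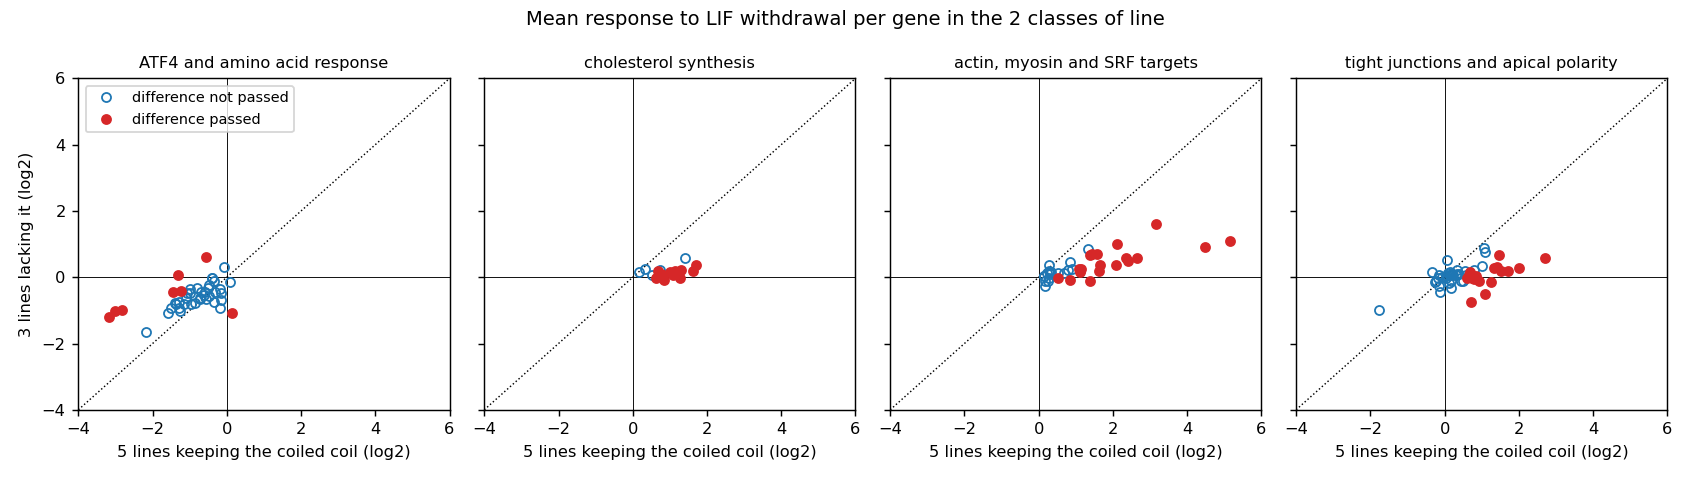
Mean response per gene in the 5 lines that keep the coiled coil (horizontal axis, log2) and in the 3 lines that lack it (vertical axis, log2) for 4 lists, with filled points where the difference passed and the line of equal response dotted. Points of the amino acid response list lie nearer the dotted line than those of the cholesterol, actin and tight junction lists.

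Some large changes had no passed difference and an interval of the difference that stayed within 1 log2 unit on either side of 0. Among rises these were Gpat3, with a difference of -0.22 ± 0.33 and an interval of -0.94 to 0.50, the protease inhibitor Lxn, the adaptor Dok2, the lipid flippase Atp10a and Morc4. Among falls they were Pros1 (-0.17 ± 0.21, interval -0.63 to 0.28), Kdelr3 (-0.01 ± 0.18, interval -0.40 to 0.38), Herpud1, Ly6g6e and Ncam1. A difference that missed the threshold does not show that the 2 classes respond alike. At the other end, Nox4, at -0.11 in the lacking lines, differed by -3.24 ± 0.13 (adjusted p = 1.09e-06), and the transporters Slc25a24 (0.63) and Slc40a1 (2.00) differed by -3.14 ± 0.16 and -1.74 ± 0.17.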

How the data were processed

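Total RNA of 16 samples was hybridised to 1-colour Affymetrix arrays. The authors deposited a log2 signal per probe set, computed, per the submitters' processing notes, by RMA in affy. Software versions and the definition of probe sets were not stated there. Of 65770 probe sets, 30439 had 1 gene symbol in the platform annotation, and each of 30102 genes was represented by its brightest probe set on average. Tests covered the 22872 genes that exceeded an array's 40th percentile in 3 or more arrays. A limma fit (version 3.58.1, R 4.3.3) over 16 arrays had the line as a block, because both arrays of a line carry its name. The fit gave the response in each class of line and its difference. P-values were adjusted by Benjamini and Hochberg's method, with a threshold of 0.05. On simulated data with 22872 genes for LIF withdrawal in the 5 lines, 55.2%, 92.5% and 98.5% of changes of 0.5, 1 and 2 log2 units were recovered. The simulation changed only 67, 67 and 66 genes by these sizes, equally in all 5 lines. In the data 8181 genes passed and the lines differed, so these rates check the steps and are not rates for the data.

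The lines and gene lists were chosen with earlier results of these data known. Named genes were the largest changes among genes that moved the same way in all 5 lines, up to 4 leading and 2 opposing members per list with others named for their role, the most and least even over the lines, the widest gaps of the Mbd3a(deltaMBD) line, and the largest changes with no passed class difference. Predicted genes, clones, small RNAs and receptor segments were left out of the rankings over all genes. Alternatives covered the block, filter, probe sets, normalization, array weights, variance trend, lines and title run. RefSeq promoter windows ran from 250 bases before to 50 after the start.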

Additional observations from a re-analysis of the deposited data

Results flagged for a closer look

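For 37 of 352 genes, list medians and slopes examined over the 5 lines, 1 line stood apart from the other 4 by Dixon's criterion for 5 values, with a critical value of 0.71, and chance flags about 1 in 20. The genes examined include some that were named because the Mbd3a(deltaMBD) line had the widest gap or the spread over lines was largest, so the count is partly set by that choice and is not comparable with the chance rate. The line was Mbd3a(deltaMBD) in 27 cases, Mbd3c in 5, EBRTcH3 in 3 and Mbd3a in 2. No cause was tested.

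The responses of the Mbd3a(deltaMBD) line that stood apart were those of Abca1 (-1.58), Aldh1l2 (-2.20), Amot (1.90), Atp6ap2 (-0.29), Atp6v1h (-0.62), Cdon (0.79), Cebpg (-0.92), Cldn7 (0.84), Hhip (-2.31), Hmgcs1 (0.85), Itga9 (-0.44), Kdm3a (-0.39), Lamc1 (-0.02), Lipg (0.66), Mars1 (-0.23), Nars (-0.14), Rras (1.59), Slc2a1 (0.74), Slc6a9 (-0.68), Sqle (0.75), Sulf2 (-0.29) and Tns3 (-0.35). Its medians stood apart for the lists glycogen and pentose phosphate (0.03), cholesterol synthesis (0.43), proteoglycans and heparan sulphate (0.29) and DNA methylation and chromatin regulators (0.16), and so did its slope on the mean of the other 4 (0.659). In Mbd3c the responses that stood apart were those of Mitf (-0.88), Pfkp (-1.23), Slc1a5 (-1.31), Slc7a8 (1.47) and Txnip (-2.02). In EBRTcH3 they were those of Dnmt3b (1.53), Hes1 (-0.55) and Pou5f1 (-0.57), and in Mbd3a those of Tfeb (-0.47) and Timp3 (2.28).

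The response differed between lines with and without the coiled coil for 2759 genes by the interaction contrast of the limma fit. Among the genes whose class difference or its interval is printed above, 9 differences passed (lacking minus keeping lines, log2). They were those of Aldh1l2 (1.83), Cth (1.40), Fdps (-1.44), Inhbe (1.97), Nox4 (-3.24), Nupr1 (1.98), Slc25a24 (-3.14), Slc40a1 (-1.74) and Tagln (-4.06). This is not a full list, as the difference also passed for other genes described above, among them Krt18, Igf2, Gbp2, Acta2, Thbs1, Tpm1 and Hhip. Probe sets without a gene symbol entered no comparison of the report. Of 18004 that lay above the signal limit, 101 were 2-fold higher and 498 were 2-fold lower without LIF with no overlap of the 5 arrays, while for probe sets with 1 symbol the numbers were 825 and 295 of 23108.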

How the results depend on the processing

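The count of 8181 genes that passed after LIF withdrawal ranged from 6661 to 8390 when 1 of the 8 lines was left out and from 7894 to 9404 under the other alternatives. Between 79.3% and 99.8% of the 8181 genes passed again, all of them in the same direction, and at least 1125 of the 1179 genes at 2-fold passed under each alternative. The line was the block of the fit, and with no replicate block 8259 genes passed and 7770 of the 8181 were among them. Of 288 named and tested genes, 278 kept their call and direction under every alternative, and the exceptions were Pou5f1, Psat1, Bmp4, Id4, Birc2, Col3a1, Slc45a4, Slc2a3, Hk2 and Slc3a2. Bmp4 lost its call under most alternatives, Pou5f1 also in the first run of titles, Birc2 also with no filter and with only the 10 arrays of the 5 lines, and Id4, Psat1 and Slc45a4 also with no replicate block. Of 63 list medians, 48 moved by less than the spread between lines under every alternative and 15 moved by more under at least 1.

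The difference between the classes of line depended more on the processing. The 2759 genes became 5414 with array weights (3187 lower and 2227 higher in the lacking lines) and 732 in the first run of titles (535 and 197), and ranged from 1353 to 3914 when 1 line was left out. Leaving out 1 line gave 942 to 2342 genes lower and 333 to 1572 genes higher in the lacking lines, with 1020 lower without Mbd3a(deltaCC). With no limit on the fold, the share of promoter windows with the ATF4 element was 3.09% among falls, that with the CArG box 1.39% among rises, and that with the HIF core (ACGTG) 23.8% among rises, against 5.9%, 2.9% and 19.3% at 2-fold. The cause of these changes was not tested. The slope of the Mbd3a(deltaMBD) line was 0.65 to 0.69 over the filters and normalizations. Leaving out each of the lines it is set against was an alternative chosen after seeing the data, and gave 0.64 to 0.65.

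Each line gave 1 array per condition, so the number of arrays limits the precision.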

Other observations

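EBRTcH3 differed from the other 4 lines in its median level on some chromosomes in both conditions. On chromosome 8 the median difference over 962 genes was -0.15 with LIF and -0.18 without it, on chromosome 14 (673 genes) -0.08 and -0.06, and on chromosome 15 (722 genes) 0.12 and 0.14, on the log2 scale. The median response of 602 genes of the X chromosome was 0.10, and on the autosomes it lay between 0.02 and 0.07.

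In gene families grouped by the first letters of the symbol, 23 (34.3%) of 67 Rab GTPase genes, which direct vesicle traffic, rose and 9 (13.4%) fell, against 21.3% and 14.5% of all genes. This share of rises was not particular to Rab genes. It was 34.3% for serpins, 30.6% for Tmem genes and 29.9% for solute carriers, and 10.7% for zinc finger proteins. Of 79 mitochondrial ribosomal protein genes 18 (22.8%) rose, near the share of all genes, and 7 (8.86%) fell.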
